A study of Arabidopsis thaliana with 6 samples.

Results

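The genes described here move sugar across membranes and make or break sucrose in Arabidopsis thaliana. They were chosen by gene identifier, as 39 genes of 8 families: the SWEET, STP and SUC transporters, the cell wall and vacuolar invertases, the sucrose synthases, the sucrose-phosphate synthases and the hexokinases. Of these 39 genes, 32 were among the 17675 genes of the expression table. SWEET5, SWEET13, SWEET14, SWEET16, CWINV2, CWINV4 and SUS4 were not listed in it and were not analysed here. The set does not hold every gene of its families: SWEET10, STP12 and the STP genes AT5G61520 and AT1G34580 are in the table but not among the 39, and are given further on.

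Sucrose is the main form in which plants ship carbon from leaves to growing organs such as young flowers, which import nearly all of their sugar. SUC proteins carry sucrose with protons into cells, SWEET proteins let sucrose or hexoses pass down their gradient, and STP proteins pull glucose and other hexoses from the cell wall space into the cell. Invertases split sucrose into glucose and fructose outside the cell or in the vacuole, sucrose synthase splits it reversibly into UDP-glucose and fructose, sucrose-phosphate synthase makes it, and hexokinase phosphorylates hexoses, with HXK1 also acting as a glucose sensor.

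RNA-seq was done on inflorescences of ARF3:ARF3-GR arf3-29 plants aged 3 weeks and kept at 23 °C in days of 16 h light and 8 h dark. Flowers older than stage 6 had been dissected away, and the samples are labelled floral meristems. All 6 libraries share this genotype: the arf3-29 mutant carrying the auxin response factor ARF3 as a fusion with the steroid-binding part of a glucocorticoid receptor (GR), which stays inactive until a steroid such as dexamethasone is given. The construct's name gives the ARF3 promoter as its driver. The sources used here do not say how many transgenic lines there were, nor how long the treatment lasted. There were 3 DMSO libraries, from the solvent control, and 3 DEX libraries, from plants given 10 µM dexamethasone in DMSO. The labels of all 6 name 0.015% of the wetting agent Silwet L-77 in the same treatment text, without saying apart what the DMSO plants got. The comparison asks how transcripts respond when ARF3-GR is activated. No plants that lack ARF3-GR were among the samples analysed, and effects of the steroid itself and of ARF3-GR cannot be told apart. Nothing says that the libraries came from separate plants, so p-values measure the spread between these libraries, which may be technical.

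Levels are the authors' RPM, the reads of a gene per 1000000 reads on all listed genes. Recovered reads came to 10703769 to 14469527 per library, so 1 read was worth 0.0691 to 0.0934 RPM. Changes are log2 fold changes of RPM with 1 added, DEX minus DMSO, tested with limma and adjusted over all 17675 genes, and a gene is said to have risen or fallen only with an adjusted p under 0.05. DEX-3 stood apart from the other DEX libraries (Spearman 0.985 and 0.987, against 0.991 between DEX-1 and DEX-2). Of the 4 young flower markers, LFY and AP1 were present in every library at 75.5 RPM or more and did not pass. LFY was lower in DEX with no overlap (87.3 ± 4.40 to 77.3 ± 1.57 RPM, adjusted p = 0.0523), and AP1 overlapped (-0.07, 0.401). ANT and STM fell (154 ± 6.94 to 90.9 ± 2.17 and 138 ± 7.87 to 106 ± 17.9 RPM), where 28.1% of all genes fell. The 4 pollen markers looked for were not listed.

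Of the 32 listed sugar genes, 16 rose, 5 fell and 11 did not pass the test. Among all genes 29.6% rose, 28.1% fell and 57.7% passed in either direction. The share of sugar genes that passed, 65.6%, is near that background, while more of them rose than fell. The median log2 fold change of the listed sugar genes was 0.43, against 0.00352 over all genes. The groups did not overlap for 22 of the 32 genes, against 62.9% of all genes. Changes of at least 1 on the log2 scale were found for 10 genes that rose, where 8.84% of all genes did so. They were found for 1 that fell, where 5.23% did. Among the genes that rose, STP14 and SWEET3 reached 1 RPM in no DMSO library and SWEET4 in 1. These genes are in the table through DEX, which favours a rise. The set was chosen with earlier results of these data known, so these counts are not independent of them. Without DEX-3, 15 sugar genes rose and 5 fell. Of the 18 listed transporters, 12 rose and 3 fell. Of the 14 listed enzymes, 4 rose and 2 fell.

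**Figure D1:**
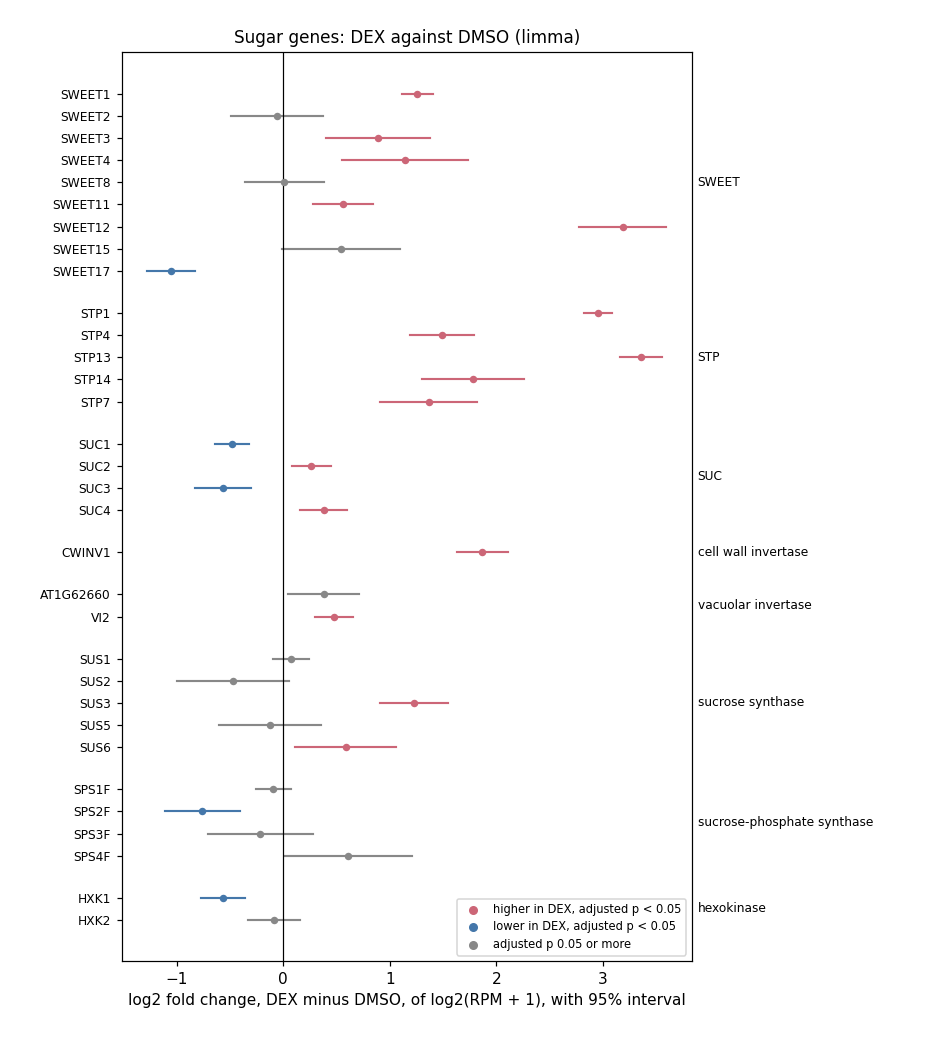
Log2 fold change (DEX minus DMSO, of log2 RPM with 1 added) of the 32 listed sugar genes by family, with bars for the 95% interval of the limma fit. All 5 STP genes lie right of zero, from 1.36 to 3.36, while SWEET17 at -1.05 lies farthest left.

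All 5 STP hexose importers of the set rose, by 1.36 to 3.36 on the log2 scale. The 3 STP genes in the table outside the set did not pass: STP12 (0.23, adjusted p = 0.301), AT5G61520 (-0.17, 0.196) and AT1G34580 (-0.34, 0.106). STP1 (AT1G11260), the main high-affinity glucose importer of many tissues, had 91.0, 93.7 and 102 RPM in DMSO and 737, 765 and 733 RPM in DEX. The DEX values are thus far above the DMSO values, with narrow spread inside each group. The means of 95.5 ± 5.51 and 745 ± 17.7 RPM (SD, n = 3 each) give a ratio of 7.81, and the log2 fold change was 2.95 (SE 0.0622, adjusted p = 3.05e-16). STP13 (AT5G26340, also MSS1), a hexose importer known to be induced by stress and by pathogens, had 12.1, 12.7 and 10.5 RPM in DMSO and 126, 130.1 and 133 RPM in DEX. Its log2 fold change of 3.36 (SE 0.0934, adjusted p = 7.72e-15) was, with 1 added to RPM, the largest of the sugar genes listed. On that scale it was the 64th highest of all 17675 genes. The lead over SWEET12 depends on the value added. With 5 added STP13 led, at 3.01 against 2.23, but with 0.1 added SWEET12 led, at 3.60 against 3.46. SWEET12 also led on recovered reads, with edgeR (3.56 against 3.46) and with DESeq2 (3.57 against 3.46).

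STP1 and STP13 rose with DEX from unlike starting levels, and the 250 bases before their RefSeq start (TAIR10.1) are shown because these are the STP genes with the largest changes among those listed. The stretches are chr1:3776986-3777235 on the plus strand and chr5:9247541-9247790 on the minus strand. The sources used here name no build for the expression table, and these coordinates are RefSeq's own. Capitals mark matches to any of 5 short motifs searched on both strands. Auxin response factors can bind TGTCTC, the first, and also the related motif TGTCGG. The third is the G-box, CACGTG, and the next is known from amylase promoters of rice that sugar represses, TATCCA. The last, known from promoters of light-regulated genes, is GATAAG. Where matches overlap, both count.
STP1: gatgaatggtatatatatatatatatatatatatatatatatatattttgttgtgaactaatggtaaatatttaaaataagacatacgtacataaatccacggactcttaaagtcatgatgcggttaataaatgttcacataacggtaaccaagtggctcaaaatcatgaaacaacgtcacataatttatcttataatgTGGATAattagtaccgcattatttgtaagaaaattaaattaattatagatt
STP13: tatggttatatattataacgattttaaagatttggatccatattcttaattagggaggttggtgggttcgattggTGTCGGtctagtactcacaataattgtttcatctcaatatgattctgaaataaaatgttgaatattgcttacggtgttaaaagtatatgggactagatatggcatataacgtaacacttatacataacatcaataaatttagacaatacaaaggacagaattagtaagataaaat
STP1 holds TATCCA, read on the opposite strand, at position -51, counted back from the start, and STP13 holds TGTCGG at position -175. TATCCA stood in 14.2% of 17369 promoters of the same length and in 8 of the 32 sugar genes (25%), and TGTCGG in 4.60% and in 2 (6.25%). By outcome, TATCCA stood in 3 of the 16 sugar genes that rose, 2 of the 5 that fell and 3 of the 11 that did not pass. Such matches describe the letters of the stretch and show no binding.

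The other STP genes were weaker. STP4 (AT3G19930), a hexose importer of sink tissues, had 5.95, 5.13 and 6.08 RPM in DMSO and 17.1, 18.9 and 17.5 RPM in DEX (1.49 on the log2 scale, adjusted p = 1.06e-07). STP7 (AT4G02050), known to carry the pentoses of the cell wall, had 2.57, 2.56 and 1.19 RPM against 7.75, 6.50 and 6.23 RPM (1.36, adjusted p = 4.1e-05). For STP13, STP4 and STP7 the lowest DEX library lies well above the highest DMSO library. STP14 (AT1G77210), a galactose transporter, had 0.482, 0.440 and 0.316 RPM against 4.86, 3.87 and 3.01 RPM (1.78, adjusted p = 3.31e-06). STP14 reached 1 RPM in no DMSO library, so it is in the table, which asks for 1 RPM in 3 libraries, through DEX alone, and had to differ. Its ratio of means was 9.48, from 4 to 6 reads per DMSO library and 43 to 56 per DEX library. With pseudocounts of 5 and 0.1 in place of 1, the log2 fold change of STP14 was 0.71 and 2.96, and that of STP7 was 0.74 with 5.

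**Figure D2:**
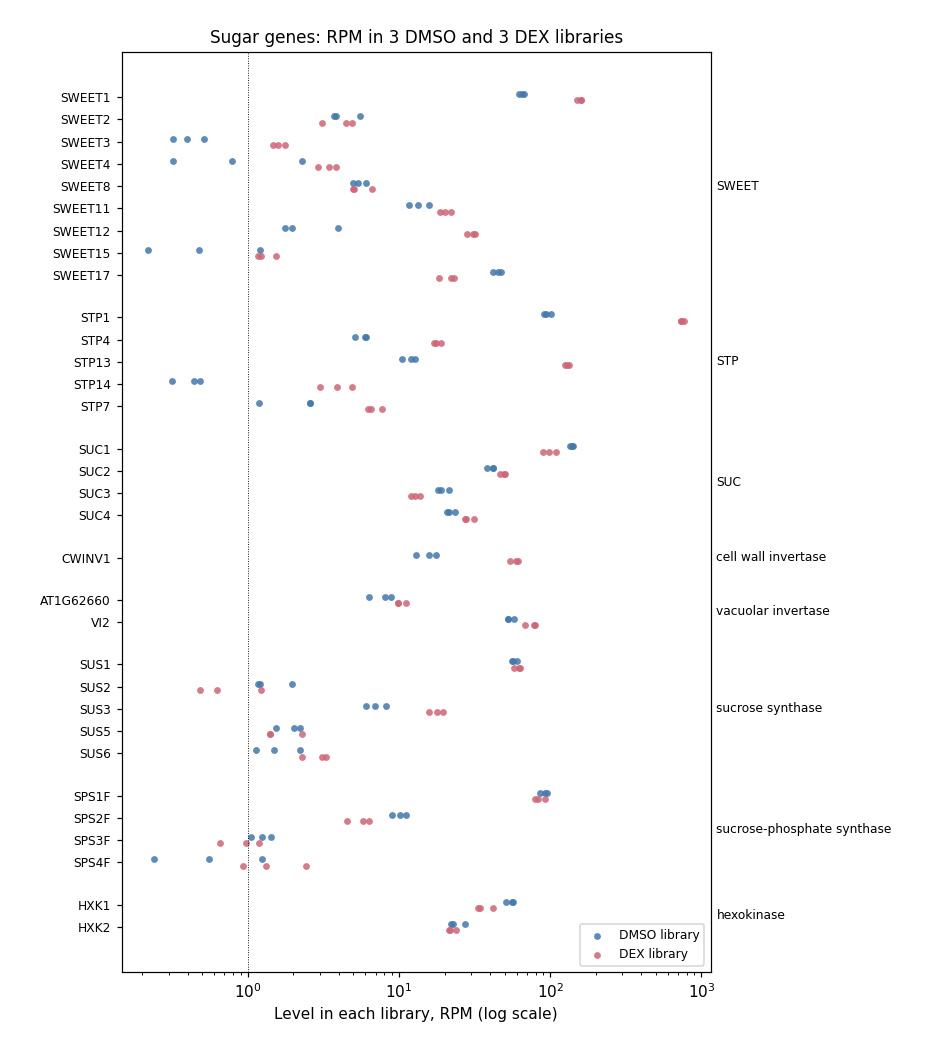
RPM of the 32 listed sugar genes in each of the 3 DMSO and 3 DEX libraries, on a log scale, 1 point per library, with a dotted line at 1 RPM. In DEX, STP1 has the highest level of the sugar genes shown (733 to 765 RPM), and SWEET3 and STP14 lie left of the line in all 3 DMSO libraries.

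Of the 9 listed SWEET genes of the set, 5 rose, SWEET17 fell and 3 did not pass. SWEET10, in the table but outside the set, fell too. SWEET12 (AT5G23660), which releases sucrose from phloem parenchyma for loading in leaves together with SWEET11, had 3.94, 1.76 and 1.98 RPM in DMSO and 31.7, 28.1 and 31.0 RPM in DEX. The ratio of means was 11.8 and the log2 fold change 3.18 (SE 0.193, adjusted p = 2.49e-10), the 80th highest of all genes with 1 added to RPM. Its partner SWEET11 (AT3G48740) rose less, from 15.7, 11.7 and 13.3 RPM to 22.1, 20.2 and 18.7 RPM (0.56, SE 0.133, adjusted p = 0.00169). Per kilobase of exon, SWEET12 stood at 0.259, 0.156 and 0.153 of the SWEET11 level in the DMSO libraries and at 1.47, 1.44 and 1.71 in the DEX libraries. The order of the pair was thus opposite in the groups, a pattern chosen after the values were seen and given with no test.

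SWEET1 (AT1G21460), a glucose carrier of the plasma membrane, had the highest level of them and rose from 67.0, 65.3 and 62.1 RPM to 158.8, 151 and 159.5 RPM (1.26, SE 0.0697, adjusted p = 7.15e-11). SWEET17 (AT4G15920), a fructose carrier of the vacuole membrane, went the other way, from 45.3, 47.3 and 41.8 RPM to 22.0, 23.2 and 18.5 RPM (-1.05, SE 0.106, adjusted p = 2.15e-07). Counted per kilobase of exon, the SWEET1 share of the summed level of these 9 SWEET genes, which leaves out SWEET10, was 47.1 ± 0.208% in DMSO and 64.4 ± 1.19% in DEX, and the SWEET17 share was 33.1 ± 1.54% and 8.88 ± 1.09% (SD, n = 3 each).

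The remaining SWEET genes were weak. SWEET4 (AT3G28007), a hexose carrier of veins, rose from 0.322, 2.27 and 0.790 RPM to 3.83, 2.90 and 3.43 RPM (1.14, adjusted p = 0.00221). SWEET3 (AT5G53190) rose from 0.322, 0.513 and 0.395 RPM to 1.78, 1.59 and 1.47 RPM (0.89, adjusted p = 0.00332). SWEET3 reached 1 RPM in no DMSO library, so it is in the table through DEX alone and had to differ. SWEET4 reached it in 1 DMSO library and is also in the table through DEX, which favours such a rise. The log2 fold changes of both moved with the pseudocount, from 0.29 to 1.76 for SWEET3 and from 0.46 to 1.85 for SWEET4. SWEET8 (AT5G40260), needed for the pollen wall and active in the tapetum, had 5.39, 4.98 and 6.01 RPM against 4.95, 6.63 and 5.04 RPM, with overlapping groups and a 95% interval of the log2 difference from -0.36 to 0.39. SWEET2 (AT3G14770), a glucose carrier of the vacuole membrane, had 4.38 ± 1.0 and 4.16 ± 0.936 RPM (interval -0.49 to 0.38). SWEET15 (AT5G13170), also named SAG29 for its rise in ageing leaves, had 1.21, 0.220 and 0.474 RPM against 1.21, 1.17 and 1.54 RPM and did not pass (0.54, adjusted p = 0.0868). It passed without DMSO-1, the DMSO library that equals the DEX values, at 0.78 (adjusted p = 0.0270).

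Markers of phloem and tapetum were read beside these genes. Of 8 phloem markers 7 were listed, with a summed level of 65.4 to 71.7 RPM in DMSO and 110 to 154 RPM in DEX. APL and NAKR1 rose, and SEOR1, CalS7, PP2-A1, FTIP1 and HA3 did not pass. The 28.6% of these 7 markers that rose are near the 29.6% of all genes. SEOR1, a protein gene of sieve elements, had 26.5 ± 1.97 and 25.8 ± 3.73 RPM. NAKR1 alone went from 2.53 ± 0.656 to 65.3 ± 20.2 RPM, which makes up most of the summed difference. Of 7 tapetum markers 3 were listed, AT5G07230, A7 and AMS, and all 3 rose, where 29.6% of all genes did. The sum of these 3 went from 4.10 to 5.79 RPM in DMSO to 14.4 to 17.5 RPM in DEX. A7 and AMS reached 1 RPM in no DMSO library, so they are in the table through DEX alone and had to differ. The part of these cells in the changes of SWEET, SUC and invertase genes was not tested. In bulk tissue, a change in the number of cells of a type and a change in RNA per cell cannot be told apart.

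All 4 SUC sucrose transporters passed, 2 in each direction, and all with log2 changes smaller than 1. SUC1 (AT1G71880), the most abundant of them and a high-affinity sucrose importer known from pollen and roots, fell from 139.9, 140.5 and 134 RPM to 98.1, 109 and 90.3 RPM (-0.48, SE 0.0763, adjusted p = 4.13e-05). SUC3 (AT2G02860, also SUT2), a low-affinity sucrose carrier of sink tissues, fell from 21.5, 19.0 and 18.1 RPM to 12.7, 13.8 and 12.0 RPM (-0.57, SE 0.126, adjusted p = 0.000961). No DEX library reached a DMSO library in either gene. SUC4 (AT1G09960, also SUT4), which lets sucrose out of the vacuole, rose from 23.4, 20.7 and 21.6 RPM to 27.8, 27.2 and 31.3 RPM (0.38, SE 0.107, adjusted p = 0.00585). SUC2 (AT1G22710), the companion cell transporter that loads sucrose into the phloem, had 41.8, 41.6 and 37.9 RPM against 46.6, 49.5 and 50.2 RPM, a rise of 0.26 (SE 0.0867, adjusted p = 0.0152). The SUC2 call was lost without DMSO-3, its lowest library, at 0.22 (adjusted p = 0.0751).

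The 250 bases before the start of the SUC genes that fell are shown with the same capitals, for SUC1 from chr1:27053780-27054029 on the plus strand and for SUC3 from chr2:832620-832869 on the minus strand.
SUC1: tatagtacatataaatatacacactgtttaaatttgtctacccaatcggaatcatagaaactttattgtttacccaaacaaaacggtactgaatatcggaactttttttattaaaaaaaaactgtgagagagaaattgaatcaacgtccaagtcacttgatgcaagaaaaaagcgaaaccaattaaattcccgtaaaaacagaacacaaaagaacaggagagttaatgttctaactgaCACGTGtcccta
SUC3: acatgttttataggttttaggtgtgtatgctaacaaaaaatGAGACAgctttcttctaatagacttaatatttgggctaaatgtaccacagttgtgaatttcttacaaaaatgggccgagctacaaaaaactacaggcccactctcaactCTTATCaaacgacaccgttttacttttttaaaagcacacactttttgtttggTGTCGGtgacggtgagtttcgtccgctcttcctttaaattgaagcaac
SUC1 holds the palindrome CACGTG at position -12. SUC3 holds TGTCTC at -209 and GATAAG at -100, both read on the opposite strand, and TGTCGG at -48. Among all promoters 7.44% held CACGTG, 10.4% TGTCTC and 12.3% GATAAG, against 5, 5 and 2 of the 32 sugar genes. Of the 5 sugar genes that fell, SUC3 alone held TGTCTC or TGTCGG, and of the 16 that rose, VI2 and SUS6 held TGTCTC and STP13 held TGTCGG. The SUS6 stretch of 250 bases counts 214 annotated exon bases, against 0 for VI2, STP13 and SUC3. Stretches were counted whether or not they held exon bases.

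Of the acid invertases of the set, CWINV1 and VI2 rose and AT1G62660 did not pass. FRUCT5 (AT1G55120), listed but outside the set, had 16.2 ± 1.19 and 16.4 ± 1.55 RPM (0.01, adjusted p = 0.957). CWINV1 (AT3G13790), the cell wall invertase that supplies hexoses to importers such as the STP proteins, had 15.8, 17.5 and 12.9 RPM in DMSO and 61.4, 54.5 and 59.3 RPM in DEX. The groups are far apart, with a ratio of means of 3.79 and a rise of 1.87 on the log2 scale (SE 0.113, adjusted p = 2.61e-10). VI2 (AT1G12240), the more abundant of the vacuolar invertases, rose from 57.6, 52.6 and 52.3 RPM to 78.6, 80.0 and 68.6 RPM (0.47, SE 0.0845, adjusted p = 0.000129). The other vacuolar invertase, AT1G62660, had 8.84, 8.13 and 6.32 RPM against 9.90, 9.88 and 11.2 RPM. Its groups did not overlap, but at 0.38 it narrowly missed the threshold (adjusted p = 0.0506), which it passed under other settings of the test.

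Of the 5 listed sucrose synthases, SUS3 and SUS6 rose and 3 did not pass. SUS3 (AT4G02280), known from maturing seeds and stressed leaves, rose from 6.03, 6.96 and 8.22 RPM to 15.9, 17.9 and 19.7 RPM (1.23, SE 0.15, adjusted p = 2.1e-06). SUS1 (AT5G20830), the most abundant isoform here, had 57.2, 56.0 and 60.7 RPM against 62.5, 57.3 and 63.5 RPM, with a 95% interval of the log2 difference from -0.10 to 0.24. Per kilobase of exon, the SUS3 level was 0.125, 0.147 and 0.161 of the SUS1 level in DMSO and 0.301, 0.370 and 0.367 in DEX. SUS6 (AT1G73370), an isoform of the phloem, had 1.13, 2.20 and 1.5 RPM against 3.08, 2.28 and 3.29 RPM (0.59, adjusted p = 0.0350). The SUS6 call was lost without DMSO-1 (adjusted p = 0.142), DMSO-3 (0.0823), DEX-1 (0.0865) or DEX-3 (0.0933), and on recovered reads with edgeR (0.0566) and DESeq2 (0.0709). SUS2 (AT5G49190), known from seeds, had 1.21, 1.17 and 1.98 RPM against 1.21, 0.484 and 0.630 RPM (-0.47, interval -1.0 to 0.06), and SUS5 (AT5G37180), the other phloem isoform, 1.92 ± 0.346 and 1.69 ± 0.508 RPM (interval -0.60 to 0.35).

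Of the 4 sucrose-phosphate synthases, SPS2F alone passed, and it fell. SPS2F (AT5G11110) had 8.92, 10.2 and 11.1 RPM in DMSO and 6.35, 5.81 and 4.55 RPM in DEX (-0.76, SE 0.168, adjusted p = 0.000926). SPS1F (AT5G20280), the major isoform of leaves, held 88.4 ± 1.41% of the family's level per kilobase in DMSO and 91.6 ± 1.36% in DEX. Its RPM values of 91.9, 85.8 and 94.9 against 79.5, 83.7 and 92.6 overlapped (interval of the log2 difference -0.26 to 0.07). SPS3F (AT1G04920) had 1.24 ± 0.189 and 0.937 ± 0.269 RPM (interval -0.71 to 0.28). SPS4F (AT4G10120), the other main leaf isoform, had 0.241, 1.25 and 0.553 RPM against 0.934, 2.42 and 1.33 RPM and did not pass (0.61, adjusted p = 0.0740), and its value rests on single libraries. Leaving out DMSO-2 gave 0.84 (adjusted p = 0.0304) and leaving out DEX-1 gave 0.79 (0.0347), while leaving out DMSO-1 gave 0.41 (0.275) and leaving out DEX-2 gave 0.38 (0.307).

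The glucose sensor HXK1 (AT4G29130) fell and HXK2 (AT2G19860) did not pass. HXK1 had 51.1, 55.7 and 57.1 RPM in DMSO and 33.5, 34.5 and 42.0 RPM in DEX (-0.57, SE 0.0984, adjusted p = 9.61e-05). HXK2, a hexokinase of the mitochondrial surface like HXK1, had 22.0, 22.6 and 27.3 RPM against 21.9, 21.4 and 24 RPM (interval of the log2 difference -0.33 to 0.15). Per kilobase, HXK1 stood at 2.70, 2.86 and 2.43 times the HXK2 level in DMSO and at 1.79, 1.87 and 2.04 times in DEX, with no overlap. Of the other pairs looked at, STP13 over STP1 and SPS2F over SPS1F did not overlap either. The ratio of VI2 to AT1G62660 overlapped, at 10.6 to 13.6 in DMSO and 10.1 to 13.3 in DEX. All such pair ratios are given with no test.

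Levels were summed per kilobase of exon over the listed genes of the set in each family. The STP sum showed the largest ratio between groups among the 8 sums. Its 3 DMSO libraries lay at 45.2 to 48.2 RPM per kb and its 3 DEX libraries at 358 to 371. STP1 supplied 82.6 ± 2.01% of that level in DMSO and 82.8 ± 0.337% in DEX, so most of the sum is STP1. In DMSO the SWEET sum (101 to 109 RPM per kb) and the SUC sum (96.6 to 103) were above the STP sum, and in DEX they were below it, at 181 to 190.5 and 84.5 to 91.8. The hexokinase sum went from 32.9 to 37.9 in DMSO to 24.6 to 29.4 in DEX. The sucrose-phosphate synthase sums overlapped, at 26.9 to 29.6 and 23.9 to 27.2 RPM per kb. These sums leave out the 7 genes that were not listed and all genes outside the set, among them SWEET10 (58.5 ± 4.31 and 24.3 ± 3.25 RPM) and AT5G61520 (26.2 ± 2.91 and 23.0 ± 1.30 RPM), so they are not levels of whole families.

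**Figure D3:**
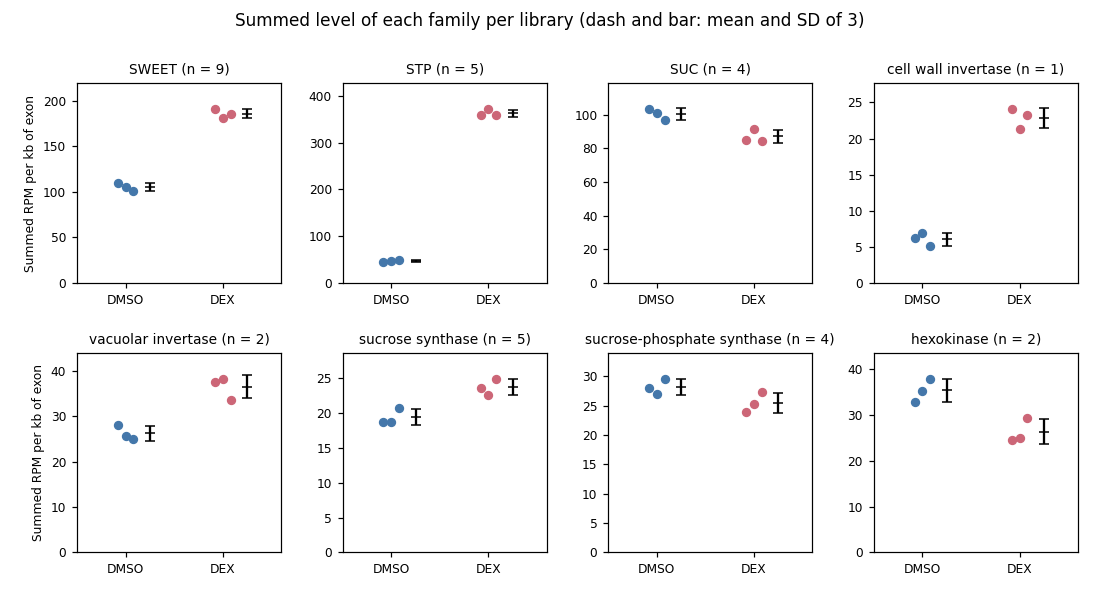
Summed RPM per kilobase of exon over the listed genes of the set in each of the 8 families, 1 point per library, with the mean and SD of 3 libraries beside each group (n in each title counts listed genes). The STP points lie at 45.2 to 48.2 in DMSO and 358 to 371 in DEX, and the sucrose-phosphate synthase points of the groups overlap.

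Further genes of sugar movement and metabolism showed no common direction. Of 67 such genes in 9 lists, 40 were in the table, of which 11 rose and 13 fell (median log2 fold change 0.01), and the 60.0% that passed are near the 57.7% of all genes. Of 18 other SWEET, STP and SUC genes 4 were listed, of which the 3 STP genes did not pass. SWEET10 (AT5G50790), a sucrose carrier known as a target of the flowering signal, fell from 58.5 ± 4.31 to 24.3 ± 3.25 RPM (-1.24, adjusted p = 2.19e-08). Among 7 transporters of the vacuole membrane and the ERD6 type, ERD6 and ERDL6 rose (0.92 and 0.80), and VGT1 and AT5G17010 fell (-0.46 and -0.74). Of 4 polyol and inositol transporters, PMT5 (AT3G18830), a broad carrier of polyols and sugars, rose from 83.9 ± 6.88 to 351 ± 37.4 RPM (2.05, adjusted p = 7.72e-13), INT2 and INT1 rose (1.4 and 0.94), and INT4 did not pass.

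Of 7 listed neutral invertases 1 rose, 3 fell and 3 did not pass. A/N-InvC (AT3G06500), of the mitochondria, rose from 17.6 ± 2.95 to 74.4 ± 2.93 RPM (2.03, adjusted p = 4.89e-11), and CINV2 (AT4G09510), of the cytosol, fell from 68.7 ± 2.36 to 38.4 ± 5.82 RPM (-0.83, adjusted p = 1.78e-06). A/N-InvD and A/N-InvA also fell (-0.54 and -0.32), and CINV1, A/N-InvB and INV-E did not pass. CINV1, the main cytosolic form, had 163 ± 7.03 and 169.7 ± 8.85 RPM. The fructokinase AT5G51830 rose from 42.0 ± 2.69 to 164 ± 15.7 RPM (1.94, adjusted p = 2.27e-12), AT1G66430 fell (-0.31), and 2 of the 4 did not pass. Of 3 sucrose phosphatases, which act after sucrose-phosphate synthase, SPP2 and AT2G35840 rose (1.02 and 0.57). In the hexose phosphate list, FBP (AT1G43670), the cytosolic fructose bisphosphatase, rose from 58.7 ± 3.51 to 161 ± 11.2 RPM (1.44). UGP1 (AT3G03250), which makes UDP-glucose, fell from 66.7 ± 2.02 to 29.8 ± 1.82 RPM (-1.14, adjusted p = 5.49e-09), and PGM3 and PGM2 fell (-0.30 and -0.28). The other listed hexokinase genes, ATHXK4 and HKL1, fell (-0.70 and -0.30), and of the invertase inhibitors C/VIF1 rose (0.61, with overlapping groups) and C/VIF2 fell (-0.39). All 9 genes looked at as reporters of sugar shortage or darkness (ASN1, SEN1, DIN2, DIN4, DIN9, DIN10, DIN11, BGAL4 and BCE2) rose, by 1.03 to 5.97, their summed level going from 195 to 203 RPM in DMSO to 2712 to 2938 RPM in DEX. DIN9 and DIN11 among them reached 1 RPM in no DMSO library and had to differ. Of all genes 29.6% rose. The reporters were chosen with earlier results of these data known, so their count is no independent support.

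**Figure D4:**
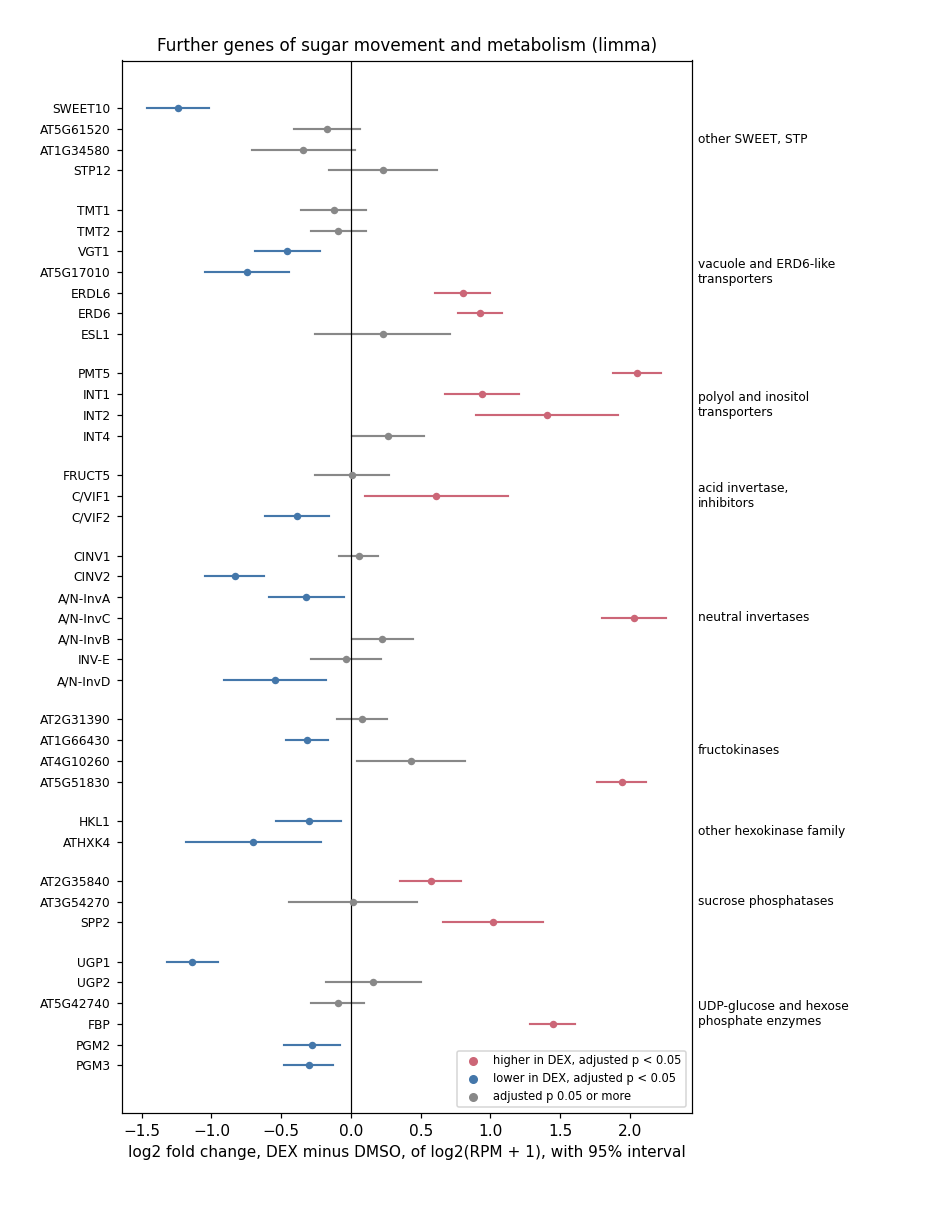
Log2 fold change (DEX minus DMSO, of log2 RPM with 1 added) with 95% interval for the 40 listed genes of 9 further lists of sugar transport and metabolism. PMT5, A/N-InvC and AT5G51830 lie at or near 2, SWEET10 and UGP1 lie below -1, and genes of 1 list often lie on both sides of zero.

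Few of these genes held exon sequence that also occurs elsewhere in the genome. Of the 50-base windows in the exons of each of the 39 genes, none occurred elsewhere in the TAIR10.1 genome for 37 genes, while STP1 had 0.525% and SUS5 0.0412% of such windows. The sources used here do not state strand use, so reads of overlapping genes on opposite strands cannot be told apart. STP1 shares 312 exon bases (12.6% of its exons) with AT1G11270, which had 4.92 ± 0.612 and 8.00 ± 1.75 RPM, far below STP1. HXK1 shares 193 exon bases (9.07%) with the antisense RNA AT4G08055, which was not listed, and 23 with AT4G29120 (37.0 ± 1.64 and 31.2 ± 0.554 RPM). SWEET1 shares 52 (3.98%) with SCL1, which rose from 10.3 ± 1.63 to 32.5 ± 2.76 RPM. Partners above the sugar gene's own level in DMSO were found for SPS4F and STP7. SPS4F shares 166 exon bases (3.50%) with AT4G10130 (8.09 ± 0.622 and 10.4 ± 2.75 RPM), and STP7 shares 64 (2.94%) with AT4G02040 (6.02 ± 0.263 and 4.43 ± 1.02 RPM) and 21 (0.963%) with PRL, which fell from 89.8 ± 4.01 to 25.2 ± 2.70 RPM. The share of such reads in these values was not tested.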

How the data were processed

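The 3 DMSO and 3 DEX libraries were grouped and numbered by their titles. The submitters' processing notes name TopHat and HTSeq, with no version, genome build, annotation or strand setting. The authors deposited RPM: each library sums to 1000000 over the 17675 listed genes, and every listed gene reaches 1 RPM in 3 libraries or more. Of all values 100% were whole multiples of 1 read within 0.01 reads, so reads were recovered. On these, edgeR 4.0.16 called 10146 genes. The main test was limma 3.58.1 (R 4.3.3) with an intensity trend on log2(RPM + 1), two-sided, Benjamini-Hochberg adjusted over all genes. The added 1 understates changes of weak genes. Intervals are 95%. The minimum of 1 RPM in 3 libraries removed no gene. Within groups, chi-square per degree of freedom between libraries was 2.80 to 12.0, above sampling noise, so no library was treated as a copy of another. The pairs with DEX-3 gave 10.5 and 12.0, and all other pairs 2.80 to 4.31. This does not show that they came from separate plants. Read counts cover counting error only.

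Names and exon lengths came from RefSeq TAIR10.1, which matched 17646 identifiers. AT1G62660 has no name there and is called by its identifier. The test was also run on simulated counts, with equal dispersion for all genes and few genes changed. That setting differs from these data, so the run is not used as support. The sugar genes and the lists were chosen with earlier results of these data known. Every listed sugar gene is named. Of each further list, up to 3 genes past the threshold per direction are named by size of change, and in a list with none past it the gene of smallest p; further names were added to spell out small counts, after their values were seen. Alternatives were other pseudocounts, minimums, scalings, moderation, edgeR, DESeq2 1.42.0, a replicate block, a fold change minimum and leaving out each library.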

Additional observations from a re-analysis of the deposited data

How the results depend on the processing

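Of the 21 sugar genes that passed, 19 passed with the same direction in every alternative that gave a value, the fold change minimum aside, the exceptions being SUC2 and SUS6. With a log2 fold change of at least 1 required, 10 sugar genes rose and 1 fell, 6 further genes rose and 2 fell, and 2487 of all genes passed. Leaving out 1 library at a time gave 14 to 17 sugar genes that rose and 5 that fell, 10 to 12 further genes that rose and 9 to 13 that fell, and 9072 to 10412 genes in all. The sign changed for genes that never passed: SWEET2 ranged from -0.16 to 0.10 over the libraries left out (0.09 without DMSO-3, 0.10 without DEX-2), SWEET8 from -0.10 to 0.075 (-0.04 without DMSO-2, -0.10 without DEX-2) and HXK2 from -0.15 to 0.0041 (without DMSO-3). Log2 fold changes of 5 weak genes that passed moved by over 1.5 times with the pseudocount. SWEET3 went from 0.29 (pseudocount 5) to 1.76 (0.1), SWEET4 from 0.46 to 1.85 and STP14 from 0.71 to 2.96. STP7 and SUS6 were 0.74 and 0.26 at pseudocount 5. On recovered reads, edgeR and DESeq2 gave 1.93 and 1.96 for SWEET3, against 0.89 in the main test. For STP14 they gave 3.20 and 3.23, against 1.78. With a minimum of 5 RPM in 3 libraries, 13 sugar genes rose and 5 fell, since fewer genes were tested. AT1G62660 passed at pseudocount 5 (adjusted p = 0.0469), with the minimum of 5 RPM (0.0447), without the intensity trend (0.0396), with robust moderation (0.0480) and without DMSO-1 (0.0388). Same-numbered libraries showed no sign of deviating together (correlations of -0.05, 0.06 and 0.03). Pairs with unlike numbers gave -0.10 to 0.08. With so few libraries this cannot exclude a pairing by number. With the replicate block 17 sugar genes rose and 5 fell, SPS4F being added (0.61, adjusted p = 0.0416), and 10 further genes rose and 12 fell, of 10255 genes in all.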
